A study of Homo sapiens with 6 samples.

Results

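The genes described here are 44 genes of ribosome biogenesis and RNA polymerase I, chosen by name from the 58735 genes of the deposited count table, and all 44 were found. The data are RNA sequencing of KYSE410, an established cell line of human oesophageal squamous cell carcinoma. In 3 samples ADAR1, the adenosine deaminase that edits double-stranded RNA, was knocked down with small interfering RNA (siADAR1), and 3 control samples, titled NC and labelled wild type, were the comparison. No label gives the siRNA sequence, the time after transfection or what the controls received, so the loss of ADAR1 and any effect of siRNA delivery or off-target binding cannot be told apart. Separate cultures are not stated for the replicates. The p-values therefore reflect the spread of these 6 samples, which may be technical in part or in whole.

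Ribosomes are built in the nucleolus. RNA polymerase I transcribes the ribosomal DNA into a long precursor, guided by the initiation factors UBTF, RRN3 and the SL1 complex. Small nucleolar ribonucleoproteins (snoRNPs) of the box C/D class methylate that precursor and those of the box H/ACA class convert uridine to pseudouridine, while separate sets of assembly factors cut and fold it into the small and the large ribosomal subunit. Fast-growing cells, tumour lines among them, express these genes strongly, and many are known targets of the transcription factor MYC. Polyadenylated RNA was selected before sequencing, so the values are levels of the messenger RNAs and say nothing of the ribosomal RNA precursor or of the rate of ribosome assembly.

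Library totals ran from 15175619 to 16903792 counts in siADAR1 and from 15497788 to 17329443 in control. The target ADAR had 92.8, 95.8 and 77.6 CPM in siADAR1 libraries 1 to 3, against 456, 432 and 444 CPM in control libraries 1 to 3 (CPM, counts-per-million on library sizes scaled by trimmed mean of M-values). Markers of squamous epithelium were present in all libraries except KRT14, which had at most 2 counts in each, and none of 5 leukocyte markers had more than 1 count in any library. Of 6 fibroblast markers, DCN was at 0 and COL1A2 had at most 3 counts, but the summed level was 72.3 to 85.0 CPM in siADAR1 and 40.1 to 59.4 CPM in control, through LUM and COL1A1, which rose, and its part in the results was not tested. Of 4 endothelial markers, KDR was at 0 and the summed level was at most 1.34 CPM in siADAR1 and 2.15 CPM in control. In 27 of the 44 genes control replicate 1 was the highest control library (61.4%, against 39.5% of all tested genes), and results that depend on it are given with it left out.

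More of the 44 genes fell than rose in siADAR1 cells. All 44 had enough counts to be tested. At a Benjamini-Hochberg adjusted p below 0.05 in edgeR's quasi-likelihood test, 22 of the 44 fell, where 25.0% of all 15294 tested genes fell, and 5 rose, or 11.4%, where 26.0% of all tested genes rose. Called genes of either direction were 27 of the 44, and 51.0% of all tested genes. Of the 9812 tested genes with a mean of 10 to 1000 CPM, a range that leaves out NPM1, NCL, PPAN and NOP2, 31.6% fell and 28.1% rose. The median log2 fold change of these 9812 was -0.03. The median log2 fold change of the 44 was -0.28, against 0.00 for all tested genes, with quartiles of -0.47 and 0.07 against -0.40 and 0.48. The changes were small: 1 gene, BYSL, fell at least 2-fold, where 4.94% of all tested genes did, and 1, TAF1D, rose at least 2-fold, where 9.85% did. In bulk RNA, fewer cells with a transcript and less of it per cell cannot be told apart. Scaling by library totals alone raised the median of all genes to 0.12, and then 17 of the 44 fell and 8 rose, with a median of -0.16, where 18.9% of all tested genes fell and 32.0% rose. Leaving out siADAR1 replicate 1, or either of control replicates 2 and 3, lowered the number that rose to 3, where 21.8% to 22.3% of all genes tested in those fits rose. Without both libraries numbered 1, 21 fell and 6 rose, with a median of -0.19, where 26.7% of all tested genes fell and 27.1% rose.

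**Figure D1:**
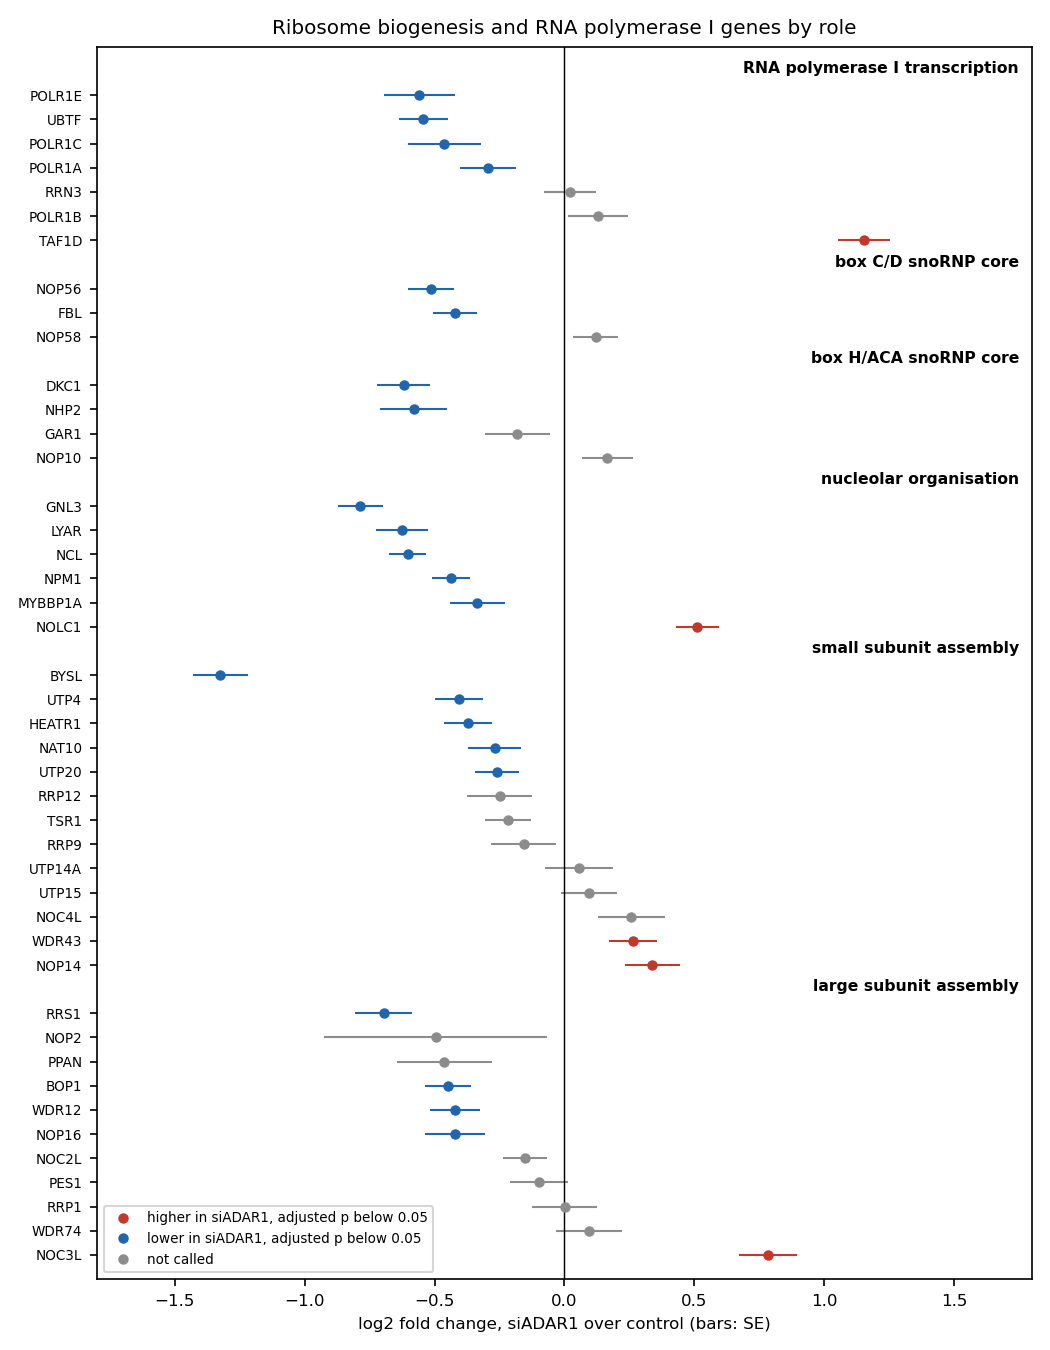
Log2 fold change of siADAR1 over control (horizontal axis) for each of the 44 genes, grouped by role; points are edgeR estimates, bars are standard errors, and colour gives the call at an adjusted p below 0.05. Most points lie left of 0, BYSL is farthest left at -1.32 and TAF1D farthest right at 1.15.

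Summed over the 44 genes, the level was 5459.8, 5307.4 and 5289.8 CPM in siADAR1 libraries 1 to 3, against 6885.5, 6575.7 and 6345.1 CPM in control libraries 1 to 3, and the groups did not overlap. NPM1 and NCL, the nucleolar proteins nucleophosmin and nucleolin, made up 1758.0, 1728.0 and 1811.8 CPM of this sum in siADAR1 and 2483.3, 2607.8 and 2476.4 CPM in control. Without this pair the sum was 3701.8, 3579.4 and 3478.0 CPM in siADAR1, against 4402.2, 3967.9 and 3868.7 CPM in control. The groups still did not overlap on this scaling. With library totals alone they overlapped, as siADAR1 replicate 1 lay above control replicates 2 and 3. By role, the sum of the RNA polymerase I genes was the exception, at 677.1, 635.9 and 612.3 CPM in siADAR1, against 666.4, 597.3 and 601.2 CPM in control. These groups overlapped, and the sum includes TAF1D, which rose. In the other 5 roles every siADAR1 sum lay below every control sum on this scaling. As percent of all counts, the small-subunit sum was 0.1167, 0.1097 and 0.1049 in siADAR1, against 0.1241, 0.1121 and 0.111 in control. The large-subunit sum was 0.08878, 0.08411 and 0.08255 percent in siADAR1, against 0.1026, 0.08836 and 0.08493 percent in control. Both roles overlapped there. The small-subunit sum includes BYSL, which fell. By single gene, the groups did not overlap for 23 that lay lower in siADAR1 and 6 that lay higher, where 29.7% of all tested genes lay lower and 30.7% higher, or 60.3% in either direction.

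Among the 7 genes of RNA polymerase I transcription, 4 fell, 1 rose and 2 did not pass. The shares were 57.1% and 14.3%, where 25.0% of all tested genes fell and 26.0% rose. POLR1E, a peripheral subunit of the polymerase, had 21.6, 20.2 and 18.4 CPM in siADAR1 and 33.4, 30.2 and 25.0 CPM in control. UBTF, which binds the ribosomal DNA promoter and keeps it open, had 91.8, 95.0 and 91.7 CPM in siADAR1, against 151, 132 and 122 CPM in control. In both genes every siADAR1 library lay below every control library, and the log2 fold changes were -0.56 ± 0.14 (SE) and -0.54 ± 0.09 (SE), with edgeR adjusted p of 0.00388 and 3.90e-04. POLR1C, a subunit shared with RNA polymerase III, fell by 0.46 on the log2 scale (edgeR adjusted p = 0.0144), a call lost without siADAR1 replicate 3 (adjusted p = 0.0622) and with library totals alone. Without control replicate 1 the log2 fold change of POLR1C was -0.29. POLR1A, the largest subunit, stood at -0.30 ± 0.11 (SE) on the log2 scale with an edgeR adjusted p of 0.0365, but its groups overlapped. The POLR1A call was lost when either replicate numbered 1 or either numbered 3 was left out, with adjusted p of 0.0726 to 0.123. POLR1B, the second-largest subunit, was at 0.13 ± 0.11 (SE) on the log2 scale (edgeR adjusted p = 0.369) and passed as higher without control replicate 1. RRN3, the factor that recruits the polymerase to the promoter, was at 0.02 ± 0.10 (SE), and 3 pseudogenes named after it held 2027 counts over all libraries beside 9656 of its own, so its value is uncertain where reads match several copies. Leaving out siADAR1 replicate 3, or scaling by library totals alone, left 2 genes of this role lower, and leaving out control replicate 1 gave 2 higher.

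TAF1D (ENSG00000166012, chromosome 11, 93729948 to 93784391, minus strand, GRCh38), a subunit of the SL1 complex that places the polymerase on the promoter, moved the other way. It had 221, 174 and 183 CPM in siADAR1 libraries 1 to 3, against 82.3, 87.0 and 90.7 CPM in control libraries 1 to 3. The groups were far apart and siADAR1 replicate 1 was the highest. Its mean was 193 ± 24.9 CPM in siADAR1 cells and 86.7 ± 4.23 CPM in control cells (SD, n = 3 each), a log2 fold change of 1.15 ± 0.10 (SE) with an edgeR adjusted p of 1.89e-06, and the call held under all 18 alternatives. TAF1D carries 8 snoRNA genes within its boundaries on the same strand, and 17.3% of its exon bases are shared with these and other genes. How reads in shared bases were assigned is unknown.

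Of the 3 core proteins of box C/D snoRNPs, 2 fell, or 66.7%, and 1 did not pass, where 25.0% of all tested genes fell. NOP56, a scaffold of the particle, had 159, 152 and 145 CPM in siADAR1 and 238, 215 and 199 CPM in control, and FBL, the methyltransferase fibrillarin, had 134, 137 and 139.5 CPM in siADAR1 and 192, 189 and 168 CPM in control. Both fell, by 0.51 ± 0.09 and 0.42 ± 0.08 on the log2 scale (SE, edgeR adjusted p of 3.87e-04 and 0.00107). NOP58, the partner of NOP56 in the same particle, had 158, 148.5 and 152 CPM in siADAR1, against 129, 148.4 and 144 CPM in control. These groups almost touched, the log2 fold change was 0.12 ± 0.09 (SE), and the gene did not pass (edgeR adjusted p = 0.261), though it passed as higher with library totals alone.

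Of the 4 box H/ACA proteins, which also form part of telomerase, 2 fell and 2 did not pass, where 25.0% of all tested genes fell and 26.0% rose. The share called in this role was near the 51.0% of all tested genes called in either direction. DKC1, the pseudouridine synthase dyskerin, had 103, 104 and 102 CPM in siADAR1 and 185, 144 and 146 CPM in control, with control replicate 1 above the rest. NHP2 had 26.9, 34.1 and 25.9 CPM in siADAR1, against 42.9, 47.7 and 39.3 CPM in control, again without overlap. On the log2 scale DKC1 was at -0.62 ± 0.10 (SE) and NHP2 at -0.58 ± 0.13 (SE), with edgeR adjusted p of 2.68e-04 and 0.00219. Of the NHP2 exon bases, 27.4% are shared with RMND5B on the opposite strand, and without strand such reads cannot be told apart. GAR1, at -0.18 ± 0.13 (SE), did not pass. NOP10, the smallest protein of the particle, had 63.0, 64.9 and 65.3 CPM in siADAR1 and 54.2, 63.3 and 54.9 CPM in control. The NOP10 groups overlapped, and its log2 fold change was 0.17 ± 0.10 (SE) (edgeR adjusted p = 0.175). It passed as higher with library totals alone.

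**Figure D2:**
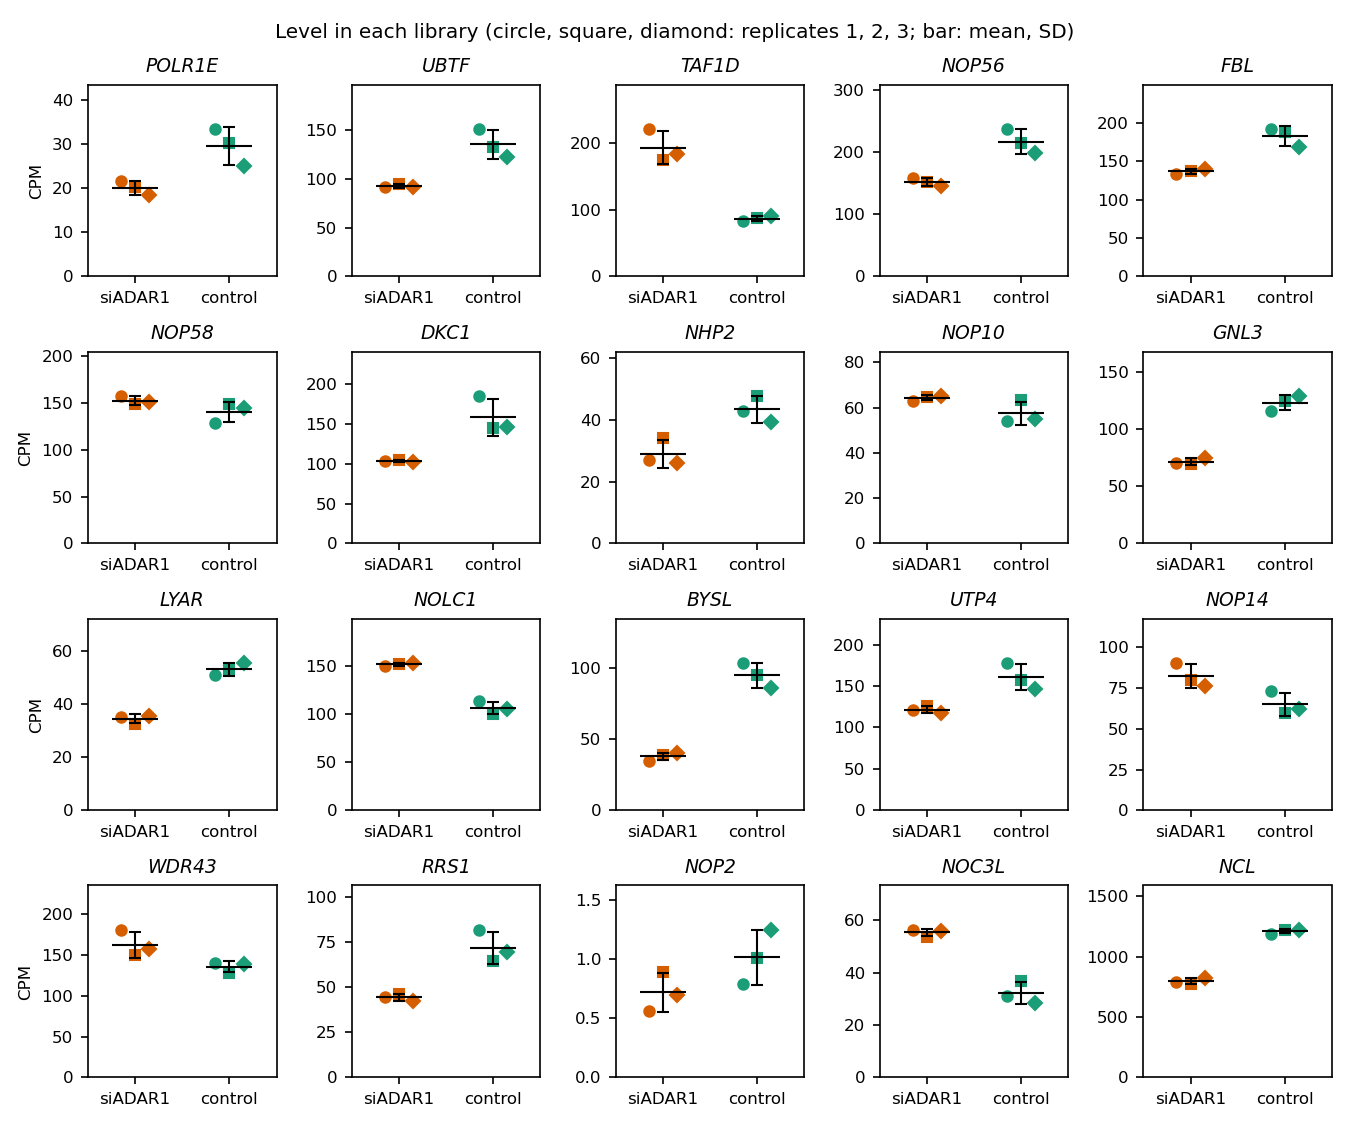
Level in CPM (vertical axis, from 0) of 20 genes in each library, siADAR1 on the left and control on the right; circles, squares and diamonds are replicates 1, 2 and 3, and the black bars are the mean and SD. The groups are clearly apart for BYSL, GNL3, NCL, TAF1D and NOC3L, while those of NOP10 and NOP2 overlap.

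Of 6 genes for proteins that organise the nucleolus, 5 fell and 1 rose. The shares were 83.3% and 16.7%, where 25.0% of all tested genes fell and 26.0% rose. GNL3, the GTPase nucleostemin, had 70.4, 69.2 and 74.9 CPM in siADAR1, against 116, 124 and 129 CPM in control. LYAR, a nucleolar zinc finger protein, had 35.2, 32.5 and 35.7 CPM in siADAR1, against 50.9, 53.1 and 55.6 CPM in control. Each siADAR1 library was below each control library, at -0.79 ± 0.09 (SE) and -0.63 ± 0.10 (SE) on the log2 scale (edgeR adjusted p of 1.13e-05 and 1.95e-04). NCL, which binds the nascent precursor, averaged 797 ± 24.4 CPM in siADAR1 cells and 1210.9 ± 17.8 CPM in control cells (SD, n = 3 each), or 65.8% of control. NPM1, a chaperone that holds the outer layer of the nucleolus together, averaged 969 ± 18.1 CPM in siADAR1 cells and 1311.7 ± 66.8 CPM in control cells, or 73.8% of control. Both fell, with edgeR adjusted p of 1.82e-05 and 2.97e-04. The table holds 45 pseudogenes named after NPM1, with 1846 counts over all libraries beside 108737 of NPM1 itself. MYBBP1A, a nucleolar binding partner of MYB, fell by 0.34 on the log2 scale (edgeR adjusted p = 0.0183), a call lost without siADAR1 replicate 3 (adjusted p = 0.0731) and with library totals alone. Without control replicate 1 the log2 fold change of MYBBP1A was -0.21. NOLC1, a chaperone of snoRNPs also known as Nopp140, rose instead. It had 150.1, 152 and 154 CPM in siADAR1, against 114, 100.5 and 106 CPM in control, with no overlap and a log2 fold change of 0.51 ± 0.08 (SE) (edgeR adjusted p = 2.40e-04).

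The assembly factors of the small subunit held the deepest fall of a single gene, BYSL. Their median log2 fold change of -0.22 was the closest to 0 of the 6 roles. Of 13, 5 fell, 2 rose and 6 did not pass. The shares were 38.5% and 15.4%, where 25.0% of all tested genes fell and 26.0% rose. Of tested genes at 10 to 1000 CPM, 31.6% fell. BYSL (ENSG00000112578, chromosome 6, 41921188 to 41933046, plus strand, GRCh38), or bystin, which acts late in the maturation of the small subunit, had 34.9, 38.9 and 40.1 CPM in siADAR1 libraries 1 to 3, against 104, 95.2 and 86.1 CPM in control libraries 1 to 3. All siADAR1 libraries lay far below all control libraries. Its mean was 38.0 ± 2.72 CPM in siADAR1 cells and 95.1 ± 8.87 CPM in control cells (SD, n = 3 each), or 39.9% of control, with a log2 fold change of -1.32 ± 0.10 (SE) and an edgeR adjusted p of 8.28e-07, a call that held under all 18 alternatives. UTP4, a part of the processome that first binds the precursor, had 121, 125 and 117 CPM in siADAR1 and 178, 158 and 147 CPM in control, with no overlap, and fell by 0.41 ± 0.09 (SE, edgeR adjusted p = 0.00243). HEATR1, another processome protein, fell by 0.37 ± 0.09 (edgeR adjusted p = 0.00456), and shares 23.2% of its exon bases with the opposite strand, mostly with LGALS8.

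Smaller changes in the same role were less secure. NAT10, the acetyltransferase of small-subunit ribosomal RNA, and UTP20 fell by 0.27 and 0.26 on the log2 scale, with edgeR adjusted p of 0.0423 and 0.0205. The NAT10 call survived the removal of control replicate 3 alone and was lost without any one of the other 5 libraries (adjusted p of 0.0510 to 0.145), and its log2 fold change was -0.16 without control replicate 1. The UTP20 call was lost without either replicate numbered 2 or either numbered 3 (adjusted p of 0.0588 to 0.101). NOP14, which enters the processome together with NOC4L, had 90.5, 79.8 and 76.3 CPM in siADAR1, against 73.0, 59.6 and 62.5 CPM in control. WDR43, a processome protein of the UTP4 group, had 181, 151 and 157 CPM in siADAR1, against 140.2, 128 and 139 CPM in control. In both genes siADAR1 replicate 1 was the highest library and the groups were separated by a small gap, and the log2 fold changes were 0.34 ± 0.11 (SE) and 0.26 ± 0.09 (SE) (edgeR adjusted p of 0.0175 and 0.0290). Leaving out siADAR1 replicate 1, or either of control replicates 2 and 3, ended both calls, at adjusted p of 0.0610 to 0.127, which left 0 genes of this role higher. NOP14 shares 17.1% of its exon bases with NOP14-AS1 on the opposite strand, which had 1097, 830 and 756 counts in siADAR1, against 495, 441 and 425 in control. The 6 without a call, RRP12, TSR1, RRP9, UTP14A, UTP15 and NOC4L, ran from -0.25 to 0.26 with SE of 0.09 to 0.13, though TSR1 passed as lower without control replicate 3 and NOC4L as higher without siADAR1 replicate 3. In this role 3 genes fell without control replicate 2, siADAR1 replicate 2 or siADAR1 replicate 3, and with library totals alone.

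Among 11 assembly factors of the large subunit, 4 fell, 1 rose and 6 did not pass. The shares were 36.4% and 9.1%, where 25.0% of all tested genes fell and 26.0% rose. Of tested genes at 10 to 1000 CPM, 31.6% fell, which is near the share in this role. RRS1 (ENSG00000179041, chromosome 8, 66429028 to 66430733, plus strand, GRCh38), whose yeast counterpart helps to load the 5S particle onto the precursor, had 44.6, 46.1 and 42.1 CPM in siADAR1, against 81.7, 64.3 and 69.2 CPM in control, and control replicate 1 was the highest. It fell to 61.7% of control, at -0.70 ± 0.11 (SE) on the log2 scale (edgeR adjusted p = 1.66e-04). BOP1, WDR12 and PES1 form one complex, PeBoW. BOP1 and WDR12 fell, by 0.45 ± 0.09 and 0.42 ± 0.10 (edgeR adjusted p of 0.00102 and 0.00255). PES1, at -0.10 ± 0.11 (SE), did not pass (edgeR adjusted p = 0.488), and the difference between PES1 and its partners was not tested. NOP16 fell by 0.42 ± 0.12 (edgeR adjusted p = 0.00866). NOC2L, RRP1 and WDR74 did not pass, at -0.15, 0.00 and 0.10.

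NOC3L (ENSG00000173145, chromosome 10, 94333226 to 94362959, minus strand, GRCh38), whose yeast counterpart binds that of NOC2L in large-subunit precursors, rose. It had 56.4, 53.7 and 56.0 CPM in siADAR1 and 31.2, 36.8 and 28.5 CPM in control. The siADAR1 libraries were close together and all above the control libraries, at 172% of the control mean, or 0.78 ± 0.11 (SE) on the log2 scale (edgeR adjusted p = 8.80e-05). NOP2, a methyltransferase of large-subunit ribosomal RNA, had 10, 14 and 11 counts in siADAR1 and 13, 15 and 19 in control, or 0.564, 0.891 and 0.699 CPM against 0.785, 1.01 and 1.25 CPM. The groups overlapped and the gene did not pass, at -0.50 ± 0.43 (SE) (edgeR adjusted p = 0.356). Of its exon bases, 54.4% are shared with the overlapping gene AC006064.6, which had 0 counts in every library. PPAN, which acts in large-subunit maturation, shares 59.8% of its exon bases, mostly with the read-through gene PPAN-P2RY11, and was at -0.46 ± 0.18 (SE) (edgeR adjusted p = 0.0508). Its groups did not overlap, and it passed as lower under 5 alternatives, among them limma-voom. The rule by which reads in shared exons were counted is unknown, and the levels of NOP2 and PPAN are uncertain.

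Per gene length, the members spanned a wide range of levels in deposited FPKM (fragments per kilobase per-million). NPM1 was highest, at 249.9 ± 4.16 FPKM in siADAR1 and 339 ± 17.4 FPKM in control (SD, n = 3 each). NOP10 and NCL came next, at 115 ± 2.03 and 114 ± 3.25 FPKM in siADAR1, which do not differ beyond their spread, while in control NCL stood at 173 ± 2.73 and NOP10 at 103 ± 9.18 FPKM. FBL and BOP1 followed at 62.1 ± 1.20 and 59.9 ± 1.14 FPKM in siADAR1 and 83.4 ± 5.84 and 81.8 ± 8.85 FPKM in control, also within their spread in control. BYSL ranked 24 of 44 in siADAR1 and 8 in control, TAF1D 18 and 36, NOLC1 9 and 20, and NOC3L 30 and 40. NOP2 and PPAN were at the bottom in both groups, at 0.151 ± 0.0348 and 2.04 ± 0.216 FPKM in siADAR1, though their shared exons make these levels uncertain. Within the box H/ACA particle the levels in siADAR1 were 115 ± 2.03 FPKM for NOP10, 24.2 ± 0.342 for DKC1, 18.9 ± 2.97 for NHP2 and 14.1 ± 0.505 for GAR1, and in control 103 ± 9.18, 37.3 ± 5.41, 28.4 ± 2.78 and 16.1 ± 2.38 in the same order of genes.

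**Figure D3:**
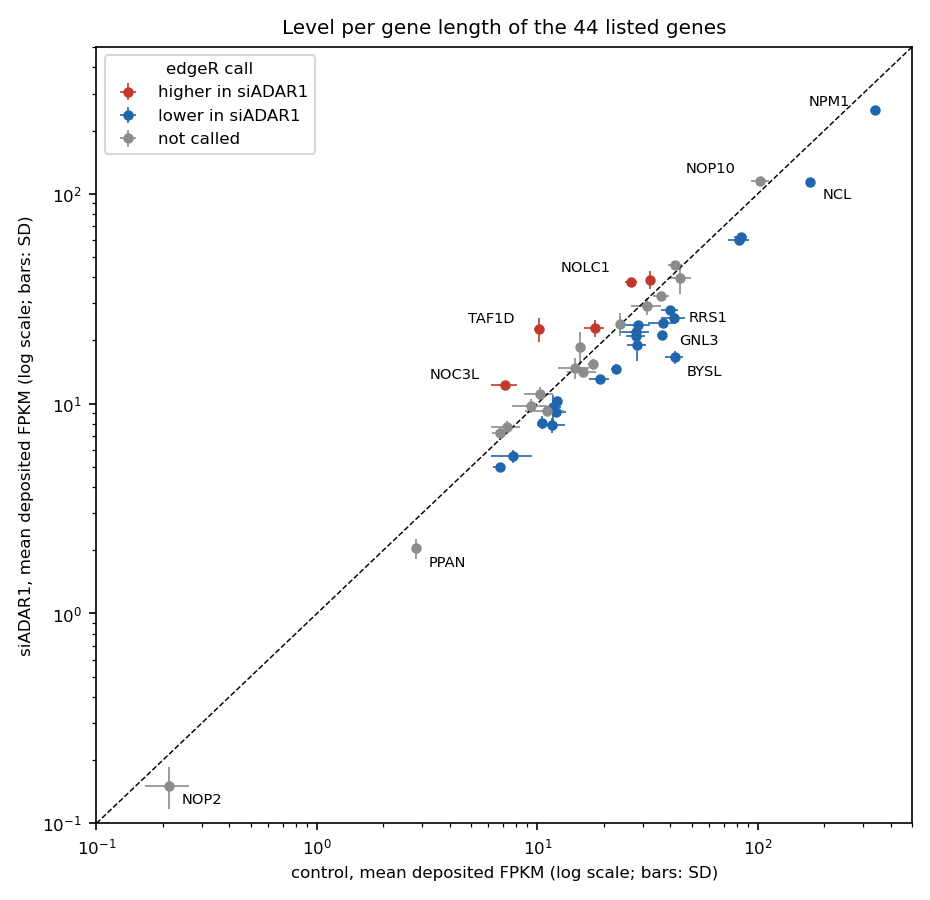
Mean deposited FPKM of the 44 genes in siADAR1 (vertical axis) against control (horizontal axis), both on log scales, with SD as bars; the dashed line marks equal levels and colour gives the edgeR call on counts. BYSL lies farthest below the line, TAF1D and NOC3L farthest above it, and NOP2 and PPAN lie apart at low levels.

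Annotation and sequence were examined for features the gene names did not fix. In GENCODE release 29, 9 of the 44 genes contain snoRNA genes on their own strand. TAF1D and WDR43 of these rose, NOP56, DKC1, NCL and GNL3 fell, and NOP58, TSR1 and PPAN did not pass. So 4 of the 9 fell and 2 rose, while 18 of the other 35 fell and 3 rose. Of all tested genes 25.0% fell and 26.0% rose. The median log2 fold change was -0.46 in these 9 and -0.27 in the other 35. Promoters of 38 of the 44 genes were found in RefSeq (GRCh38.p14, 250 bases before to 50 after the gene start), and RRP12, NOP58, NOLC1, BOP1, RRS1 and POLR1E were not among them. The letters CACGTG, the E-box bound by MYC with its partner MAX and by other factors, are the same on both strands. They were present in 14 of the 38 promoters, or 36.8%, against 9.9% of 10574 tested genes with a promoter in the table and 7.3% of all 35116 promoters. The median GC content was 64.5% in the 38 and 65.0% in the 10574, and the median number of CG dinucleotides was 26.5 and 26.0. Of the 15 matches, 13 began within 40 bases of the gene start as RefSeq gives it. The GENCODE starts used for the gene boundaries differ from these by at most 100 bases in 9 of the 14 genes. In MYBBP1A, BYSL, NOP2, UTP4 and PES1 the RefSeq start lies 247, 311, 400, 1358 and 15173 bases downstream, so there the E-box is near the RefSeq start and not near the GENCODE one.

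The E-box was found beside genes that moved in either direction, and the windows of the 9 called genes that hold it are shown to allow that comparison, read 5′ to 3′ on the strand of the gene with the E-box in capitals. Those of the 3 genes that rose come first and the 6 that fell after them.
NOC3L: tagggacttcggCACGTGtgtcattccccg
WDR43: cgcacggacgaaCACGTGgctgcagcgggg
NOP14: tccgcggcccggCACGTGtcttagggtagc
BYSL: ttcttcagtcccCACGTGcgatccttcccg
FBL: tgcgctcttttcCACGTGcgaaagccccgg
UTP4: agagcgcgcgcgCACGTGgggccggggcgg
MYBBP1A: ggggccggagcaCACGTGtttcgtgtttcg
NAT10: aatgcgcttgcgCACGTGctgtctaccagt
UTP20: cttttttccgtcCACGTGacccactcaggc
The windows lie for NOC3L at chr10:94362903-94362932, minus strand, for WDR43 at chr2:28894658-28894687, plus strand, and for NOP14 at chr4:2963374-2963403, minus strand. The others are BYSL at chr6:41921515-41921544, plus strand, FBL at chr19:39846356-39846385, minus strand, UTP4 at chr16:69132621-69132650, plus strand, MYBBP1A at chr17:4555340-4555369, minus strand, NAT10 at chr11:34105602-34105631, plus strand, and UTP20 at chr12:101280083-101280112, plus strand. Of the called genes with a promoter, 3 of 4 that rose and 6 of 19 that fell held the E-box, as did 5 of 15 without a call. The median log2 fold change was -0.21 in the 14 genes with the E-box and -0.40 in the 24 without it. A match describes these letters only and does not show that a factor binds there.

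The wider pathway was taken from lists of genes outside the 44. Of 138 listed, 137 were tested and ZNF593 was not. Of these 39 fell, or 28.5%, and 20 rose, or 14.6%, with a median log2 fold change of -0.07, where 25.0% of all tested genes fell and 26.0% rose. The share that fell was near that of all genes, and between it and the 31.6% of genes at 10 to 1000 CPM. With library totals alone 28 fell and 35 rose and the median was 0.04, where 18.9% of all tested genes fell, 32.0% rose and their median was 0.12. By its median the list lay below all genes on both scalings. It lay closer to the genes at 10 to 1000 CPM, whose median was -0.03, and 0.08 with library totals alone. Leaving out siADAR1 replicate 1 put the median at -0.12, and leaving out control replicate 3 put it at -0.11. The lowest and the highest fold change were both among the large-subunit genes. DDX21, a nucleolar RNA helicase that also acts on ribosomal DNA transcription, had 100.3, 95.7 and 105 CPM in siADAR1 and 252, 261 and 263 CPM in control, and fell by 1.37 ± 0.08 (SE, edgeR adjusted p = 1.27e-07). EFL1, the GTPase that releases EIF6 from the finished large subunit, had 47.0, 37.7 and 37.7 CPM in siADAR1 and 13.2, 15.3 and 18.0 CPM in control, and rose by 1.40 ± 0.14 (edgeR adjusted p = 6.02e-06). Neither gene's groups overlapped. Of 54 large-subunit genes tested, 14 fell, or 25.9%, which is near the share of all tested genes, and 8 rose, or 14.8%.

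Of 45 further small-subunit genes, 13 fell, or 28.9%, again near the share of all tested genes, and 7 rose, or 15.6%. UTP25 fell by 0.78 ± 0.10 and the kinase gene RIOK3, which acts on late small-subunit particles, rose by 0.90 ± 0.11 (SE, edgeR adjusted p of 4.11e-05 and 2.18e-05). Of 15 further genes of RNA polymerase I and its factors, 3 fell and 3 rose. Both shares lay below those of all tested genes, of which 25.0% fell and 26.0% rose. The median log2 fold change of these 15 was 0.09, against -0.30 for the 7 genes of RNA polymerase I transcription among the 44. TWISTNB, now named POLR1F, a subunit of the polymerase stalk, fell by 0.74 ± 0.11, and POLR2H, a subunit common to all 3 nuclear polymerases, rose by 0.61 ± 0.11 (edgeR adjusted p of 8.85e-05 and 4.88e-04). Of 9 genes for snoRNP assembly, 4 fell and 1 rose, or 44.4% and 11.1%. ZNHIT3 was at -0.52 ± 0.13 (SE) and NUFIP1 at 0.39 ± 0.12 (SE) (edgeR adjusted p of 0.00487 and 0.0127). Of 14 genes of the RNA exosome, which trims ribosomal RNA ends, 5 fell and 1 rose, or 35.7% and 7.1%. EXOSC5 was at -0.66 ± 0.11 (SE) and EXOSC8 at 0.27 ± 0.10 (SE) (edgeR adjusted p of 2.24e-04 and 0.0419). The EXOSC8 call was lost whichever library was left out, with adjusted p of 0.0579 to 0.132, while DDX21, EFL1, UTP25, RIOK3, TWISTNB, POLR2H, ZNHIT3, NUFIP1, EXOSC5, MYC and BAZ2A kept theirs under all 18 alternatives. Among 6 listed regulators of ribosomal DNA transcription, MYC and BAZ2A rose, or 33.3%, and none fell. That share is near the 26.0% of all tested genes that rose. MYC had 233, 234 and 237 CPM in siADAR1, against 116, 172 and 172 CPM in control. Its groups did not overlap, and it rose by 0.62 ± 0.13 (edgeR adjusted p = 0.00178). Control replicate 1 was the lowest library, and over the 18 alternatives the log2 fold change of MYC ran from 0.44 to 0.73.

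**Figure D4:**
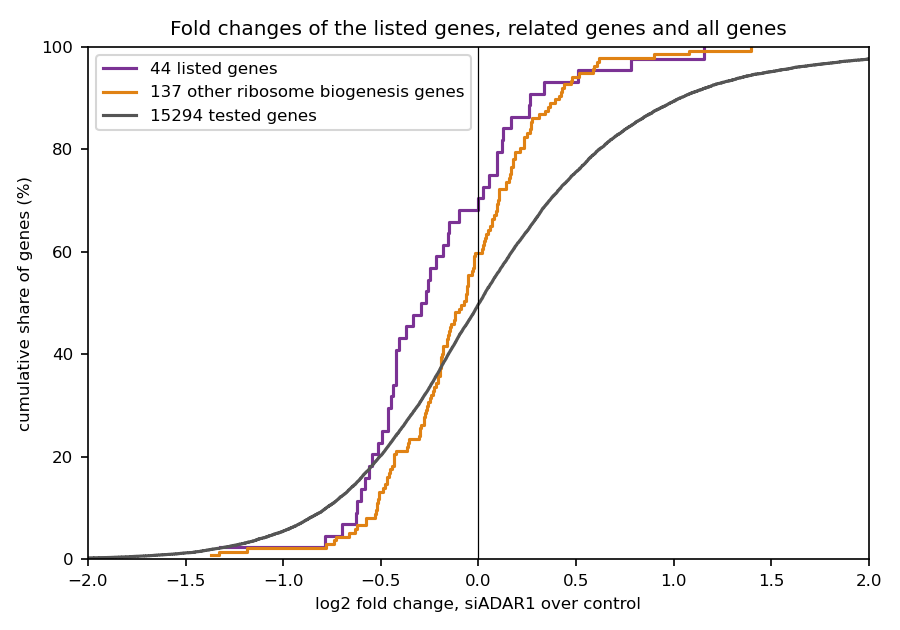
Cumulative share of genes (vertical axis, percent) at or below each log2 fold change of siADAR1 over control (horizontal axis, shown from -2 to 2) for the 44 genes, 137 other ribosome biogenesis genes and all 15294 tested genes. The curve of the 44 genes crosses its middle at -0.28, that of the other pathway genes at -0.07 and that of all genes at 0.00.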

How the data were processed

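RNA sequencing of 6 KYSE410 samples, 3 siADAR1 and 3 control, was analysed from deposited tables. Per the labels' protocols, polyadenylated RNA was captured from Trizol extracts and fragments were size-selected, with no step named that marks the strand. The submitters' processing notes name the tools HISAT2 2.0.5, fastp and CASAVA. No source used here gives the counter, build or annotation, but coordinates and exon lengths of all 58735 genes equal those of GENCODE release 29 on GRCh38.

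The counts deposited by the authors are whole numbers per gene with totals that differ between samples, so they were taken as not normalized. The deposited FPKM values carry a library factor set by the authors and were used for levels per length. All per-sample columns matched a sample title.

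Counts were tested in R 4.3.3 with edgeR 4.0.16: filterByExpr (minimum count 10), TMM factors, the robust two-sided quasi-likelihood test on group alone, and Benjamini-Hochberg over all 15294 tested genes. SE is the fold change over the square root of F. CPM uses scaled library sizes. The 44 genes, their roles, the related lists and the alternatives were chosen with earlier results of these data known. In each role the 2 lowest and the highest fold change, every gene that rose, and per related list the smallest p in each direction are named with values. Figures and sums add genes chosen after their values were seen. DESeq2 1.42.0 and limma 3.58.1 were used in alternatives. On 3 simulations of the 15294 genes with 200 changed, the test recovered 51.8% of 1.5-fold, 81.6% of 2-fold and 96.8% of 4-fold changes, with 9.6% of calls false. In the data 51.0% of tested genes were called, so that false share does not describe these calls. The simulations held no change below 1.5-fold. Replicate libraries differed by more than counting noise (chi-square per degree of freedom 3.95 to 18). All labels carry one batch value.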

Additional observations from a re-analysis of the deposited data

How the results depend on the processing

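Of the 27 called genes, 20 kept the call under all 18 alternatives, 7 lost it under at least 1 and none turned direction. Of the 17 genes without a call, 7 passed under at least 1 alternative. When each library was left out in turn, 3 to 6 of the 44 genes rose and 17 to 21 fell. Their median ran from -0.352 to -0.234. In those fits 21.8% to 25.0% of all tested genes rose and 20.6% to 24.8% fell. In RNA polymerase I transcription 1 to 2 rose and 2 to 4 fell, and in small-subunit assembly 0 to 3 rose and 3 to 5 fell. The median of the other pathway genes ran from -0.119 to -0.058.

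With library totals alone 8 of the 44 rose, with a median of -0.164. Then 2 polymerase I genes and 3 small-subunit genes fell, 1 box C/D and 1 box H/ACA gene rose, 35 other pathway genes rose, and their median reversed to 0.044, where the median of all genes was 0.12 and 32.0% of them rose. With FPKM and no filter 3 of the 44 and 0 small-subunit genes rose and 2 polymerase I genes fell. In that fit 18 of the 44 fell. It tested 30727 genes, of which 9.74% rose and 9.39% fell, a wider set than the 15294 of the main test. Without both libraries numbered 1 the median was -0.189 and 2 polymerase I genes rose. The cause was not tested. Deviations of same-numbered libraries correlated at 0.251, 0.0844 and 0.106 for numbers 1 to 3. These weak correlations do not decide whether same-numbered libraries were handled together, and the main test did not pair them. With the replicate number as a block 5 of the 44 rose and 25 fell, where 28.7% of all tested genes rose and 27.4% fell. NOP2 rests on 10 to 19 counts in each library, and how reads in its shared exons were counted is unknown.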
